A study of Zea mays with 4 samples.

Results

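Profilins and actin depolymerizing factors (ADFs) are small proteins that bind actin and set how fast actin filaments grow and turn over. Profilin holds actin monomers and feeds them to growing filament ends, while ADF severs filaments and speeds the release of monomers from the older end. In maize, PRO1, PRO2 and PRO3 are known as profilins of pollen and PRO4 and PRO5 as profilins of other tissues, and likewise ADF1 and ADF2 are known from pollen and ADF3 from vegetative organs. Genes were taken by name, as PRO1 to PRO5, adf plus a number or act plus a number, and this gave 8 of the 1108 genes that the platform annotation names, on 10 of its 1452 named probe sets. The 8 genes were the 5 profilins and 3 ADFs. The RefSeq table holds 2 genes named act plus a number, act1 and act2, but neither is tied to a named probe set, so actin itself is given through the 9 actin control probe sets of the array.

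The RNA was that of ear internodes, the stretch of stem at which the ear is borne, of F271, an inbred line of maize. The plants had no treatment, and their field was irrigated against water stress through a hot and dry season. Early silking was represented by 2 arrays made from 340 and 400 ng of RNA, and tassel emergence by 2 arrays made from 290 and 440 ng. F271 is the less favourable parent of the F288 x F271 progeny in which loci for lignin content and wall degradability were mapped, and the comparison asks how expression in its ear internode differs between the stages. Whether the 2 arrays of a stage stand for different plants is not stated, and all p-values here therefore rest on a spread that could be technical.

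Values are log2 probe set summaries, so a difference of 1 is a doubling of signal. Array medians lay between 6.35 and 6.51, and arrays correlated across tested probe sets at 0.967 within early silking, at 0.933 within tassel emergence and at 0.883 to 0.914 between stages. The 4 stem secondary wall markers bk2, cesa10, cesa11 and cesa12 were above a log2 value of 4 on all arrays, with summed levels of 12.77 and 12.41 at early silking and of 14.66 and 15.07 at tassel emergence. Markers were sought by gene name, and a marker not found may still be on the array, where 16168 probe sets carry no gene name. Of 10 pollen markers 3 were found: mgs1 and expB9 were at or below 4 on all arrays, and mpk6, a MAP kinase, was at 9.24 to 9.82. Of 10 leaf and bundle sheath markers 4 were found. Their summed levels were 14.07 and 13.79 at early silking and 13.44 and 13.67 at tassel emergence. Of 8 kernel markers 5 were found, 3 of them at or below 4 on all arrays. The other kernel markers, by their brightest probe sets, were glb1 at 8.25 to 9.08 and gz27 at 5.99 to 6.97. Of 9 markers of dividing cells 4 were found. Their summed levels were 9.26 and 9.52 at early silking and 8.84 and 9.20 at tassel emergence. The stem, leaf and dividing cell sums thus differed between stages without overlap, but a sum mostly follows its brightest marker. For dividing cells that was cdc2, with 9.10 and 9.36 at early silking and 8.65 and 8.99 at tassel emergence. A dimmer cdc2 probe set overlapped between stages, with 7.68 and 8.13 at early silking and 7.71 and 7.39 at tassel emergence. The values of pcna1, pcna2 and mcm6 overlapped between stages, as did those of pep1 in the leaf list. The other leaf markers, by their brightest probe sets, were higher at early silking without overlap. For rbcs the values were 13.67 and 13.32 against 12.99 and 13.30 at tassel emergence. For me3 they were 6.37 and 4.85 against 2.86 and 3.21, and for ppdk1 11.87 and 11.88 against 11.49 and 11.44. For the 5 maize control transcripts, the 3′ probe set exceeded the 5′ probe set by a mean of 1.88 and 2.44 at early silking and of 4.70 and 2.93 at tassel emergence. This gap, a measure of RNA integrity and of amplification, thus moved with stage, and the part of the gap and of these markers in the results was not tested.

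At both stages the members were divided between the bottom and the top of the array's scale. PRO1, PRO2, PRO3, ADF1 and ADF2 stayed between 1.88 and 2.42 on all 4 arrays, while PRO4, PRO5 and ADF3 stayed between 12.83 and 14.47. A probe set was called measured when its value was above 4 on at least 2 arrays. By that rule, 3 of the 8 genes were measured, on 5 of their 10 probe sets, whereas 61.2% of all probe sets without controls were. Signals of different probe sets depend on their probes as well as on the transcript, so their order is not an order of transcript levels. In bulk tissue fewer cells of a type and less RNA per cell cannot be told apart.

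**Figure D1:**
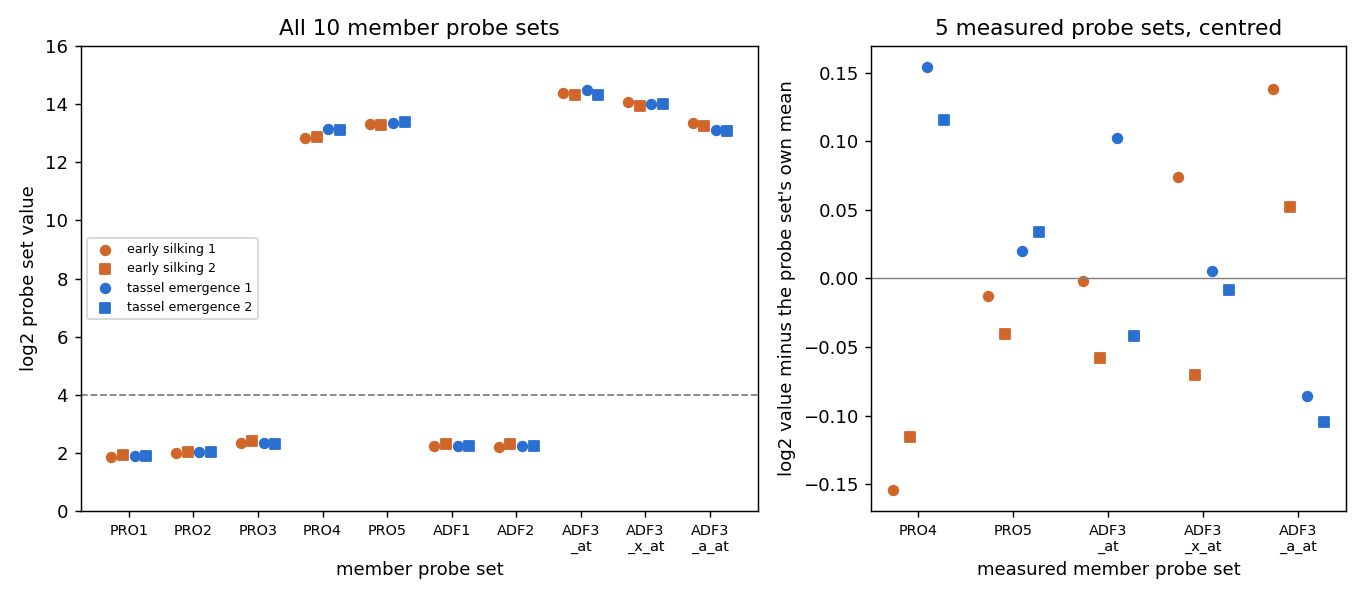
The left panel shows the log2 value of the 10 member probe sets on each array and the right panel the 5 measured ones minus their own mean over the 4 arrays; orange is early silking, blue tassel emergence, circles replicate 1, squares replicate 2 and the dashed line the log2 value of 4. PRO1, PRO2, PRO3, ADF1 and ADF2 lie below the line on every array, and among the measured probe sets the stages separate in opposite directions for PRO4 and for the ADF3 probe set with the ending _a_at.

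The pollen profilins gave no signal above the lower limit of the scale. PRO1 had 1.88 and 1.92 at early silking and 1.89 and 1.89 at tassel emergence. PRO2 had 2.02 and 2.05 at early silking and 2.03 and 2.03 at tassel emergence. PRO3, which the RefSeq table also lists as Profilin-6, had 2.35 and 2.42 at early silking and 2.33 and 2.32 at tassel emergence. All 3 were highest on early silking replicate 2. The pollen ADFs were alike: ADF1 had 2.23 and 2.32 at early silking and 2.24 and 2.23 at tassel emergence. ADF2 had 2.22 and 2.30 at early silking and 2.25 and 2.24 at tassel emergence. The highest minus the lowest array spanned 0.033 to 0.11 in these 5 genes. Early silking replicate 2 was also the highest array for 85% of the 6451 probe sets that were at or below 4 on all arrays, whose median span was 0.051. The PRO3 values do not overlap between stages, but they are set at this lower limit and no fold is given. A value there is not a proof that the transcript is missing.

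PRO4 (LOC541662), a profilin known from vegetative tissues, had a slightly lower signal at early silking. It had 12.83 and 12.87 at early silking and 13.14 and 13.10 at tassel emergence, so the stages did not overlap. The means were 12.85 ± 0.03 and 13.12 ± 0.03 (SD, n = 2 each). The change was -0.27 on the log2 scale with an SE of 0.17, or 0.83 times the tassel emergence signal, and it did not pass (limma, adjusted p = 0.386 over 10782 tested probe sets). The 95% interval of that change ran from -0.75 to 0.21.

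PRO5 (LOC542625), the other profilin outside pollen, was the steadiest of the measured members. It had 13.32 and 13.30 at early silking and 13.36 and 13.37 at tassel emergence. The stages did not overlap, yet the 4 arrays spanned 0.074 in all, and 0.51% of tested probe sets spanned less. The change was -0.05 with an SE of 0.17 and a 95% interval from -0.53 to 0.42 (limma, adjusted p = 0.870). With 2 arrays a stage and so small a spread of its own, the PRO5 interval came mostly from the variance shared between probe sets. The SD within stages was 0.015 to 0.078 for the 5 measured member probe sets, against a median of 0.253 over all tested, while their SEs lay between 0.17 and 0.18. An exact permutation test of a single gene, 2 arrays against 2, has 0.333 as its smallest p.

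ADF3 (LOC542445), the ADF of vegetative organs, was read by 3 probe sets, and they did not move alike. The probe set with the plain ending _at, which has the highest mean and stands for the gene, had 14.36 and 14.31 at early silking and 14.47 and 14.32 at tassel emergence. Its stages overlapped, with a change of -0.06 and a 95% interval from -0.56 to 0.44 (limma, adjusted p = 0.860). Without tassel emergence replicate 1, the highest array, the change was 0.012.

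The probe set with the ending _x_at, a type with some probes that may bind other transcripts, had 14.08 and 13.94 at early silking and 14.01 and 14.00 at tassel emergence. Its change was 0.0037, with overlapping stages (limma, adjusted p = 0.992), and its sign turned to -0.069 without early silking replicate 1. The probe set with the ending _a_at, a type that reads several transcripts of 1 gene, had 13.33 and 13.25 at early silking and 13.11 and 13.09 at tassel emergence. Here early silking was higher without overlap, by 0.19 with a 95% interval from -0.29 to 0.67 (limma, adjusted p = 0.531). The choice of probe set thus decided the sign of the ADF3 difference, and none of the 3 intervals left out 0.

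Of the 5 measured member probe sets, 2 were lower at early silking without overlap, PRO4 and PRO5. Over all tested probe sets 24.9% were lower in that way. The 1 that was higher without overlap, ADF3 by its _a_at probe set, stands beside 34.9% of all tested. In either direction this is 3 of 5, against 59.7% of all tested, so the members' share of separated stages was near that of the array as a whole. None passed an adjusted p of 0.05 (limma), as was so for all tested probe sets, of which 0% passed and the smallest adjusted p was 0.0864. At an unadjusted p under 0.05 the members counted 0 of 5, against 24.8% of all tested, of which 12.7% were higher and 12.1% lower. In a fit without the filter on low values 2 of the 10 member probe sets were under 0.05 unadjusted, against 19.1% of all 17621 in that fit, PRO4 at 0.0132 and ADF3 _a_at at 0.0469, and their adjusted p was 0.151 and 0.252 (limma). By the probe set that stands for each gene, all 3 had a change below 0, as had 42.6% of all tested probe sets. ADF3 was above 0 by its other probe sets, at 0.19 for _a_at and 0.0037 for _x_at. The median change of the 3 genes was -0.06, beside 0.10 for all tested probe sets, relative to which PRO4 stood at -0.37, PRO5 at -0.16 and ADF3 _at at -0.16. The bounds of the 5 intervals reached from -0.75 to 0.67, which is 1.68 times lower to 1.60 times higher at early silking.

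What the measured members shared was a high and even signal. On each array each of them stood above 98.2% to 99.9% of the 17621 probe sets without controls. The spans of the 5 probe sets over the arrays were 0.31 for PRO4, 0.24, 0.16 and 0.14 for ADF3 by _a_at, _at and _x_at, and 0.07 for PRO5, where the median span of tested probe sets was 0.824. Bright probe sets varied less in general, with a median span of 0.543 among the 638 with a mean above 12. Within those 638, 20.7% spanned less than PRO4, 12.9% less than ADF3 _a_at, 4.39% less than ADF3 _at, 3.76% less than ADF3 _x_at and 0.47% less than PRO5. How far signal near the top of the scale understates differences was not tested.

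**Figure D2:**
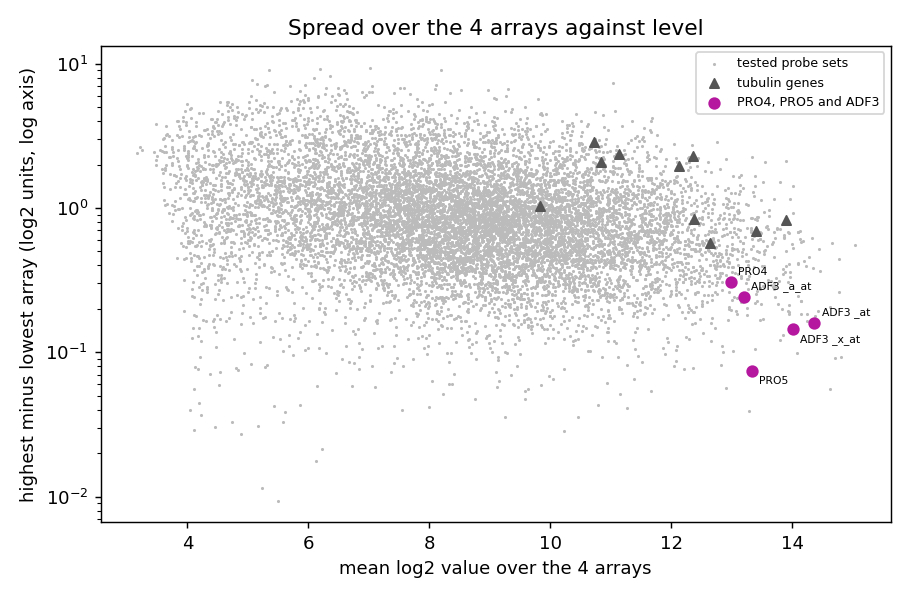
Each grey point is 1 of the 10782 tested probe sets, with its mean log2 value over the 4 arrays on the horizontal axis and the highest minus the lowest array on a logarithmic vertical axis. PRO5, at a span of 0.07, and the 3 ADF3 probe sets lie at the lower right, below the 10 tubulin genes (triangles).

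Genes with the most similar profile were found by the root mean square difference over the 4 arrays, after each profile was centred on its own mean, among 704 other named genes. The nearest to PRO5 were ANT-G2, an adenine nucleotide translocator, at 0.017, crs1, a chloroplast splicing factor, at 0.027 and sut1, a sucrose transporter, at 0.032. The nearest to ADF3 were sut1 at 0.030, ada2, a transcriptional adaptor, at 0.033 and ANT-G2 at 0.054. The nearest to PRO4 were paa at 0.029, 334B7.2 at 0.057 and PDIL5-1, a protein disulfide isomerase-like gene, at 0.064. The paa values were 11.44 and 11.46 at early silking and 11.79 and 11.77 at tassel emergence. These are matches over 4 arrays among flat or nearly flat profiles, given as a description.

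Other genes of the actin system had larger estimated changes than the profilins and ADF3, a comparison that was not itself tested. A list by name gave 12 genes, of which 8 were measured. 2 of the 12 carry symbols that in maize denote other proteins: cap1, a calcium pump, and fht, a flavanone hydroxylase. Of the 7 measured without these, 6 were lower and 1 higher at early silking, with a median change of -1.01. Over all tested probe sets 42.6% were lower. Without overlap 5 were lower, beside 24.9% of all tested, and 4 were under an unadjusted p of 0.05, all lower, beside 12.1% of all tested that were lower at that p. None passed when adjusted (limma, smallest adjusted p = 0.102).

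ROP GTPases are molecular switches at the plasma membrane that steer actin and cell shape. rop2 had 9.82 and 9.42 at early silking and 10.88 and 10.96 at tassel emergence, a change of -1.30 (limma, adjusted p = 0.102). rop9 had 8.61 and 8.03 at early silking and 10.05 and 11.00 at tassel emergence, a change of -2.20 (limma, adjusted p = 0.110). For both, every early silking array was below every tassel emergence array. brk1, a small subunit of the SCAR complex that turns on actin branching, had 10.48 and 10.19 at early silking and 11.25 and 11.44 at tassel emergence, a change of -1.01 (limma, adjusted p = 0.117).

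myo1, a myosin motor that moves along actin, had 8.73 and 8.48 at early silking and 9.17 and 9.54 at tassel emergence, a change of -0.75 (limma, adjusted p = 0.172). rop5, which the RefSeq table also lists as rop4, and rop4 had changes of -1.79 and -0.58, and rop1 had 0.29 with overlapping stages. rop3, rop6 and rop7 were not measured, with no array above 4.

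By the probe set that stands for each gene, all 10 tubulins, subunits of the other filament system of the cortex, were measured and lower. Of these, 9 were lower without overlap, and the median change was -1.18. Over all tested probe sets 42.6% were lower and 24.9% were lower without overlap. Among the tubulins 6 were under an unadjusted p of 0.05, all lower, beside 12.1% of all tested, and none passed when adjusted (limma, smallest adjusted p = 0.0864). tub4, a beta-tubulin, had 11.17 and 11.17 at early silking and 13.01 and 13.14 at tassel emergence, and the 95% interval of its change, -2.40 to -1.42, lies apart from those of PRO4, PRO5 and all ADF3 probe sets. tua5, the alpha-tubulin nearest to the members among those under 0.05 unadjusted, had a change of -0.50 with an interval of -0.99 to -0.02, which overlaps theirs. The difference between members and tubulins was not itself tested.

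**Figure D3:**
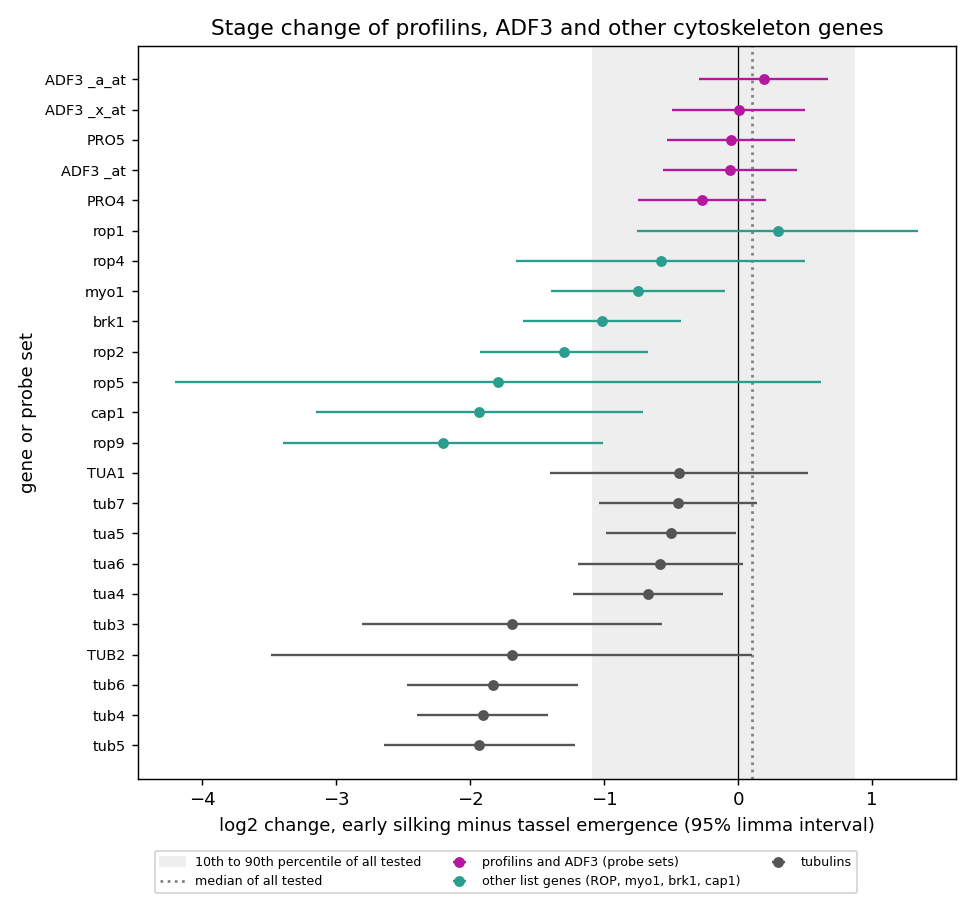
Points are log2 changes, early silking minus tassel emergence, with 95% intervals from limma for the 5 measured member probe sets, 8 other genes found by name and 10 tubulin genes; the grey band holds the 10th to 90th percentile of all tested probe sets. The members lie between -0.27 and 0.19, inside the band, and the tubulins between -1.93 and -0.44. Among the 8 other genes is cap1, a calcium pump and not an actin gene.

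Actin, the protein that profilin and ADF bind, was read by 9 control probe sets in a pair of designs, and 4 of these were at or below 4 on all arrays. The 3′ probe set with the ending _a_at had 9.27 and 8.87 at early silking and 11.16 and 11.52 at tassel emergence. Its stages did not overlap, and the difference was -2.27, larger than any difference of a profilin or ADF. Controls were left out of the fit, so this difference has no test.

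The other actin controls did not separate the stages in that way. The middle _a_at probe set had 7.28 and 5.17 at early silking and 5.93 and 8.81 at tassel emergence. The middle _x_at probe set had 4.74 and 3.13 at early silking and 3.33 and 7.15 at tassel emergence. The 5′ _a_at probe set had 5.69 and 4.48 at early silking and 3.90 and 6.26 at tassel emergence. In all 3 of these the stages overlapped and tassel emergence replicate 2 was the highest array. In the second design the middle probe set had 8.60 and 8.12 at early silking and 7.48 and 8.75 at tassel emergence, also with overlap, while its 3′ probe set was below 4 on all arrays.

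The 3′ control probe sets of the other 4 transcripts, EF1a, GAPDH, cyclophilin and ubiquitin, differed by -0.05 to 0.41 between the stages, so the lower 3′ actin value was not shared by these 3′ probe sets. The middle GAPDH control probe sets _at and _s_at were lower at early silking without overlap, at -1.44 and -1.10. The middle GAPDH probe set _f_at was higher without overlap, at 0.98. The gap between 3′ and 5′ was 3.58 and 4.39 for actin at early silking and 7.27 and 5.27 at tassel emergence. Over the other 4 transcripts it averaged 1.45 and 1.95 at early silking and 4.05 and 2.34 at tassel emergence. In these 4 the higher gap at tassel emergence, which for cyclophilin overlapped between stages, came with lower 5′ values: EF1a had 10.71 and 10.06 at its 5′ end at early silking and 6.28 and 9.08 at tassel emergence. For actin the 5′ means were 5.09 at early silking and 5.08 at tassel emergence, and the 3′ value differed. These 5′ means rest on 5.69 and 4.48 at early silking and on 3.90 and 6.26 at tassel emergence. With replicates so far apart and near the lower limit, they do not show that the 5′ end stayed the same. Tassel emergence replicate 1 had the widest mean gap. Without it PRO4 was at -0.25, PRO5 at -0.06, ADF3 _a_at at 0.20 and ADF3 _x_at at 0.011, while ADF3 _at turned from -0.06 to 0.012.

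**Figure D4:**
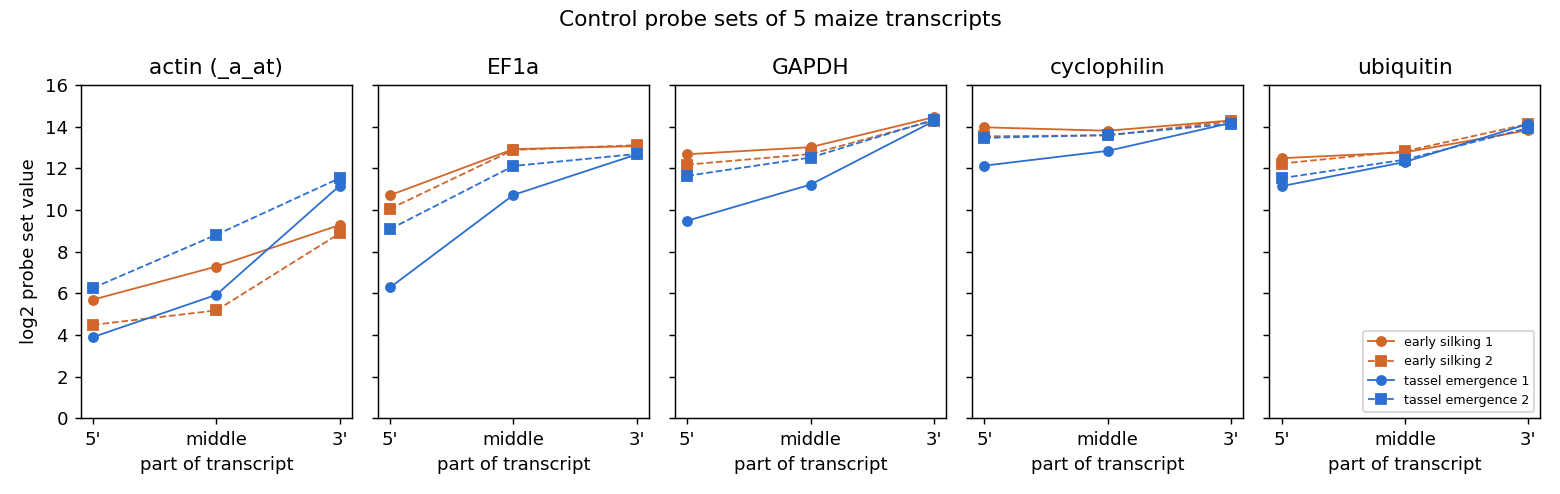
Log2 values of the 5′, middle and 3′ control probe sets of actin, EF1a, GAPDH, cyclophilin and ubiquitin; orange is early silking, blue tassel emergence, circles with full lines replicate 1 and squares with dashed lines replicate 2. At the 3′ end the stages stand apart by -2.27 for actin and by -0.05 to 0.41 for the others. The 5′ end of every transcript, actin included, is lowest on tassel emergence replicate 1.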

How the data were processed

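The deposited table holds log2 probe set values for 4 maize arrays, made by the authors with GCRMA per the submitters' processing notes; the scale is inferred from the range of the values, and GCRMA's version is not given in the sources used here. From the deposited log2 values, 113 controls were set aside and 10782 of 17621 probe sets with a value above 4 on at least 2 arrays entered lmFit and eBayes of limma (version 3.58.1, R 4.3.3), with 2-sided p-values adjusted by Benjamini-Hochberg over all of them and prior degrees of freedom of 1.95. Names came from the platform table and, through gene identifiers, from RefSeq (Zm-B73-REFERENCE-NAM-5.0), which matched 1060 of 1108 genes; 16168 probe sets carried no gene name, 1 carried several and none of these is named here. The probe set with the highest mean stood for a gene. Every member is given. From the pathway and tubulin lists, all measured genes are counted and those under 0.05 unadjusted are named in part. No pairing of arrays is stated; same-numbered arrays deviated with r = -0.42. The fit was tested on simulated data. The number of arrays limits the precision. Members and lists were chosen with earlier results of these data known.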

Additional observations from a re-analysis of the deposited data

How the results depend on the processing

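No member probe set passed an adjusted p of 0.05 in any alternative that gave a test, of 14 tried (other filters, normalizations and variance models, the replicate number as a block, leaving out each array, 1 probe set per named gene, the mean of a gene's probe sets, and crossed pairs). PRO4 ran from -0.31 to -0.25, PRO5 from -0.07 to -0.04 and ADF3 _a_at from 0.15 to 0.23. ADF3 _at was 0.012 without tassel emergence replicate 1 and -0.13 at its lowest with 1 array left out, and ADF3 _x_at was -0.069 without early silking replicate 1 and -0.0033 without tassel emergence replicate 2, with 0.076 as its highest. The median of the 3 genes was -0.11 with quantile normalization, and leaving out 1 array gave -0.13 to -0.040. Without the filter 2 of the 10 member probe sets were under 0.05 unadjusted, beside 19.1% of all probe sets in that fit, and with it 0 of 5 were, beside 24.8%. Over all probe sets, 0 passed with the replicate block, 1045 with 1 common variance, 28 when adjusted over 1 probe set for each of 800 named genes and 357 with crossed pairs, chosen after seeing the data. With the replicate block the adjusted p was 0.672 for PRO4 and 0.943 for PRO5, with the same changes. The causes were not tested.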
